A study of Homo sapiens with 6 samples.

Results

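Broad non-exon peaks are the peaks of 3000 bp or more in the lists that the authors named NotExon. SF3B4 belongs to SF3b, a part of the U2 small nuclear ribonucleoprotein, the splicing particle that binds the branch site of introns. RNA bound to it was recovered by RNA immunoprecipitation and sequencing (RIP-seq), in which an antibody pulls down a protein with its RNA. The rule took 654 of 25797 non-exon peaks of the first experiment, RIP-1 (2.54%, 95% Wilson interval 2.35 to 2.73), and 591 of 134094 of the second, RIP-2 (0.441%, 95% interval 0.407 to 0.478). Together they were 1245 of 159891 regions. They were chosen by their length, so length and all values of the same call are given as a description.

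The cells were wild-type HEK293T, an established human embryonic kidney line that carries the SV40 large T antigen, with no treatment named in the labels. The 6 libraries formed 3 groups, anti-SF3B4, non-specific IgG and input, with 1 library of each group in each RIP. The labels do not say whether the RIPs came from separate cultures. Only peak lists were analysed, 1 call per RIP, so the depth of each library is unknown and no value has an error across replicates. All intervals cover counting error only and treat peaks as independent. The sources used here do not say whether IgG or input served as the control of the calls. The study's title names METTL16, an RNA methyltransferase, but no library analysed here differed in it.

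Introns are transcribed together with the exons and removed by splicing, and U2 binds near their 3′ ends while they are still part of the transcript. Peak callers of the MACS type, whose prefix the peak names carry, join neighbouring enriched windows into 1 peak, and a long peak marks a stretch of continuous or closely spaced signal. Non-exon is the authors' own term, and no source used here defines it. Positions are in hg19. No annotation or sequence of hg19 was used, so broad peaks are named by position, and whether one lies in an intron, in unannotated RNA or between genes was not tested.

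The broad peaks were few but took a larger part of the listed length. In RIP-1 they covered 2.82 Mb, which was 11.7% of the non-exon length, and in RIP-2 2.50 Mb, or 2.87%. Above 3000 bp both RIPs had similar lengths. The median was 3892 bp in RIP-1 (quartiles 3373 and 4719) and 3829 bp in RIP-2 (quartiles 3326 and 4671). Just inside the threshold lay RIP-1 peaks of 3001, 3002 and 3003 bp and RIP-2 peaks of 3003, 3005 and 3005 bp. Just outside were RIP-1 peaks of 2999, 2998 and 2997 bp and RIP-2 peaks of 2998, 2997 and 2996 bp. The folds just inside were 5.84, 4.67 and 178.68 in RIP-1 and 4.36, 4.79 and 4.68 in RIP-2, and just outside 6.80, 4.20 and 4.78 in RIP-1 and 4.62, 12.77 and 5.0 in RIP-2. Apart from 1 peak on each side, those folds lay close together.

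The longest peak of RIP-1 was chr3:53258562-53275834, 17273 bp long, with a fold enrichment over the control of 15.77 and a false discovery rate (FDR) of 1.92%, both as deposited by the authors. It also had the lowest FDR of all broad peaks, and no RIP-2 peak touched it. The next were chr5:177631290-177644101 (12812 bp, fold 13.28), chr16:31191944-31204083 (12140 bp, fold 11.41), chr15:85746325-85757050 (10726 bp, fold 7.62) and chrX:64297408-64307927 (10520 bp, fold 4.89). Of these 5, only the peak on chromosome X overlapped a RIP-2 non-exon peak.

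The longest of RIP-2 were shorter. They were chr10:126783432-126795598 (12167 bp, fold 8.02), chr2:96479474-96489690 (10217 bp, fold 5.88), chr17:78349938-78359732 (9795 bp, fold 5.87), chr6:141203144-141212370 (9227 bp, fold 7.48) and chr7:3372774-3381907 (9134 bp, fold 8.37). None of these 5 overlapped a RIP-1 non-exon peak.

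Broad peaks had higher scores and lower folds than shorter peaks of the same list. The score appears to be the minus log10 p-value of the call multiplied by 10, the form in which MACS gives it. Its median was 103 in broad and 66.6 in shorter peaks of RIP-1, and 152 and 80.4 in RIP-2. The median fold was 4.85 against 6.59 in RIP-1, and 5.69 against 8.19 in RIP-2. Peaks just below the threshold were much like those just above it. From 2000 to 2999 bp the median fold and score were 4.96 and 86.3 in RIP-1, and 6.12 and 124.7 in RIP-2. From 3000 to 3999 bp they were 4.78 and 92.98 in RIP-1, and 5.705 and 142.2 in RIP-2. The threshold of 3000 bp therefore marks no step in fold or score. Within the broad peaks, length and fold had a Spearman rho of 0.155 in RIP-1 (n = 654) and -0.03 in RIP-2 (n = 591). All points of a RIP come from the same call.

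The highest fold of a broad RIP-1 peak was 178.68, at chr1:153953535-153956537, a peak of only 3003 bp that entered the set narrowly. It was followed by chr19:40324988-40332468 (fold 80.73), chr6:31850104-31858082 (25.92), chr17:34136400-34145894 (20.45) and chr4:2932040-2936039 (20.03). In RIP-2 the highest was 17.65, at chrX:130879356-130882882, followed by chr15:68428876-68431904 (16.28), chr1:230266075-230269192 (15.62), chr22:28731176-28735591 (15.19) and chrX:69015502-69019032 (14.57). Depths and controls are unknown, so folds of the RIPs stand side by side without a comparison.

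A score of 3100, which looks like a cap, was reached by 8 broad peaks of RIP-1 (1.22%, beside 0.0814% of its whole list) and by 0 of RIP-2 (beside 0.00597% of its list), where a count of 0 allows a share of up to 0.508%. In genome order the first 3 were the peak on chromosome 1 with the highest fold, chr10:70096075-70103247 and chr12:49521524-49525299. In RIP-2 the highest scores were 1023 at chr3:112443347-112447899, 925 at chrX:69015502-69019032 and 865 at chr8:86726468-86731933. All 3 had an FDR of 100%. Among broad RIP-2 peaks the lower FDR values belonged to the lower scores, with a median score of 68.8 for the 153 with an FDR under 100% and of 197 for the 438 at 100%.

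An FDR of 5% or less was found in 45 of 654 broad peaks of RIP-1 (6.88%), beside 0.678% of all RIP-1 non-exon peaks, and in 0 of 591 in RIP-2. In the whole RIP-2 list it was 0 of 134094, and the lowest FDR there was 68.31%, so the 0 describes the list and not its broad peaks. After the longest peak, the lowest values were 2.35% at chr16:28733952-28736989, 2.38% at chr6:33167995-33172276, and 2.53% for the first peaks at the cap. These 45 lay on 15 chromosomes, 6 each on chromosomes 1, 17 and 19. In the same order, these chromosomes held 11.6%, 6.73% and 6.12% of all RIP-1 broad peaks, and 9.14%, 3.77% and 2.73% of the list. With so few peaks on each, no difference among chromosomes is read. The folds of the 45 ran from 5.67 to 178.68 with a median of 9.10, and their median length was 4749 bp. An FDR of 100% was listed for 66.1% of broad peaks in RIP-1 (94.1% of the list) and for 74.1% in RIP-2 (41.6% of the list). The broad peaks thus held a larger share of the low FDR values in RIP-1 and a larger share of the value 100% in RIP-2.

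**Figure D1:**
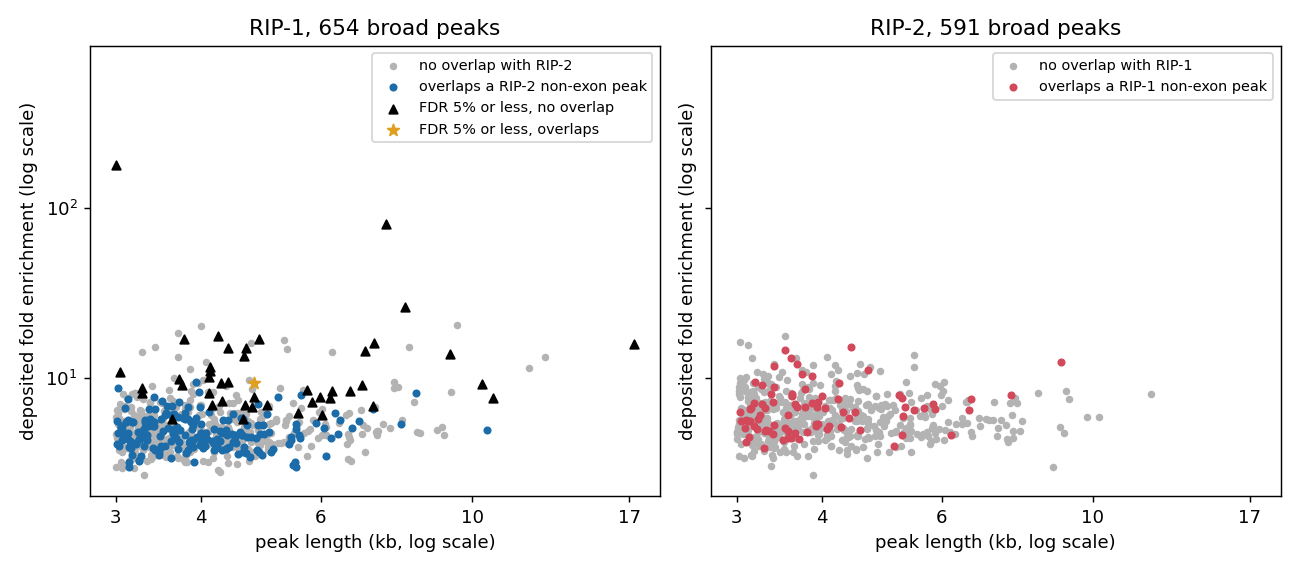
Deposited fold enrichment against length of each broad peak, both on log scales, for RIP-1 and RIP-2. Grey points did not overlap a non-exon peak of the other RIP, coloured points did, and triangles and the star mark the 45 in RIP-1 whose FDR was at most 5%, of which 1 overlapped.

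The overlap with the other RIP asks which broad stretches were called again, as the design text says that the RIPs were compared to remove non-specific reads. In RIP-1, 196 of 654 broad peaks shared at least 1 bp with the RIP-2 non-exon list (29.97%, 95% interval 26.6 to 33.6), beside 18.1% of the whole RIP-1 list. In RIP-2, 83 of 591 overlapped a RIP-1 peak (14.04%, 95% interval 11.5 to 17.1), beside 3.63% of the whole list. The order of the RIPs turned when the RIP-2 list was shortened to its highest scores, as many peaks as in RIP-1: the shares were then 13.3% of RIP-1 and 16.05% of the broad RIP-2 peaks kept. Longer peaks meet others more often by their length alone, so these shares are not read against the lists without a length-matched level.

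That level was the mean overlap of the same peaks after every possible move of a set distance to either side, counted exactly with no random draw. It is a description and gives no p-value. After moves of 1 to 10 kb, 171.9 RIP-1 and 70.6 RIP-2 broad peaks would overlap, so the observed numbers were 1.14 and 1.18 times this level. A peak moved by less than its length still covers part of its own place, which raises the level. With moves of 20 to 100 kb the factors were 1.18 and 1.51, and with moves of 50 to 500 kb they were 1.30 and 2.25. Moved peaks were not kept out of exons.

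When at least 50% of a broad peak had to be covered, 95 of 654 RIP-1 peaks qualified (14.5%), beside 13.5% of the whole list. In RIP-2 it was 55 of 591 (9.31%), beside 3.03% of the list. A longer peak needs more bp covered to reach 50%, and no length-matched level was computed here, so these shares are not read against the lists. By length of sequence, 15.2% of the broad stretches of RIP-1 and 8.63% of those of RIP-2 were covered by peaks of the other RIP, against 13.3% and 3.61% for the shorter peaks.

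**Figure D2:**
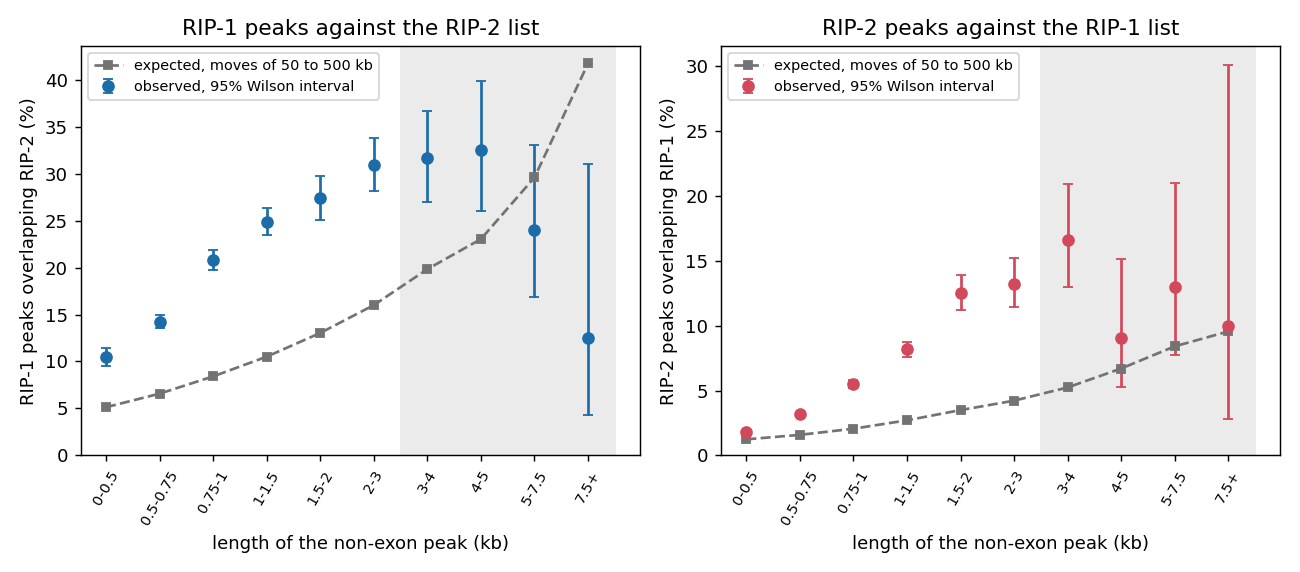
Share of non-exon peaks that overlapped a non-exon peak of the other RIP (y axis, percent) by length of the peak (x axis, kb), with 95% Wilson intervals; squares give the mean after all moves of 50 to 500 kb, and the shaded classes are the broad peaks. The RIP-1 share lies above the squares up to 5 kb, is 24.0% against 29.6% from 5 to 7.5 kb and 12.5% against 41.7% above.

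Among broad peaks of RIP-1 the overlap was lowest in the longest ones. From 4000 to 4999 bp, 56 of 172 overlapped (32.6%, 95% interval 26.0 to 39.9), from 5000 to 7499 bp 25 of 104 (24.0%, 16.8 to 33.1), and from 7500 bp on 3 of 24 (12.5%, 4.34 to 31.0). After moves of 1 to 10 kb the last class would give 6.70. The intervals of these classes overlapped. The 24 longest also had the highest median fold of these classes, 8.16, and lay a median of 13.8 kb from an mRNA-list row. In RIP-2 the same classes and that from 3000 to 3999 bp ranged from 9.02% to 16.6% without an order by length, and their intervals overlapped.

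Overlap and strength went opposite ways in RIP-1. Of the 45 broad peaks with this low FDR, 1 overlapped a RIP-2 peak (2.22%, 95% interval 0.393 to 11.6), against 170 of 432 with an FDR of 100% (39.4%, 34.9 to 44.0). The single one was chr1:986656-991446 (4791 bp, fold 9.29), named after its value was seen, where 1 RIP-2 peak covered 2118 bp. Of 46 broad peaks with a score of 500 or more, 0 overlapped, which allows a share of up to 6.52%; 35 of them are among the 45 with a low FDR.

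RIP-2 peaks were also seldom met close to these strong RIP-1 peaks. After moves of 1 to 10 kb, the 45 peaks with a low FDR would meet a RIP-2 peak in 4.04% of cases, but after moves of 50 to 500 kb in 23.6%. For the peaks with an FDR of 100% the same levels were 32.4% and 23.1%. For an FDR over 5 to 50% they were 12.2% and 21.9%, and for one over 50 to under 100% they were 24.3% and 23.8%. The level of the shorter moves counts places where a peak still meets its own partner, so it partly repeats the overlap of each class.

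In RIP-2 the overlap did not fall with strength. It was 9.34% for scores under 100 (17 of 182, 95% interval 5.91 to 14.4), 15.9% from 100 to under 500 (59 of 370, 12.6 to 20.02) and 17.9% from 500 on (7 of 39, 8.98 to 32.7). The intervals of neighbouring classes overlapped. Peaks that overlapped had a median fold of 6.41 against 5.61 for the rest in RIP-2, and of 4.68 against 5.04 in RIP-1.

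Most overlapping broad peaks met a single peak of the other RIP. Of the 196 in RIP-1, 156 met 1 RIP-2 peak, 34 met 2 and 6 met 3 or more, and the median length of the longest partner was 2062 bp (537 to 8970). Of the 83 in RIP-2, 81 met 1 RIP-1 peak and 2 met 2, with a median partner of 3474 bp (797 to 10520). The RIP-2 list holds more peaks, 134094 against 25797, and the part of this in the number of partners was not tested.

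In 53 pairs both partners were broad, 8.10% of the broad peaks of RIP-1 and 8.97% of those of RIP-2, with each peak in 1 pair. Of all peaks in the lists, 0.329% of RIP-1 and 0.180% of RIP-2 met a broad peak of the other RIP, but wide peaks meet others more often. After moves of 50 to 500 kb, 2.62 of the RIP-1 broad peaks would meet a broad RIP-2 peak, so 53 was 20.2 times this level. The factor was 7.68 with moves of 20 to 100 kb and 1.75 with moves of 1 to 10 kb, after which many peaks still reach their own partner. Its size therefore depends on the distance moved.

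Both partners of a pair had to be 3000 bp or more, so alike lengths and long shared parts follow in part from the rule. Over all 196 overlapping RIP-1 broad peaks, whatever the length of the partner, the median part covered was 49.6%. The partners in the 53 pairs shared a median of 3354 bp (39 to 6188). In 43 of 53 pairs the shared part made up at least 50% of both peaks, and in 20 at least 80% of both. The starts lay within 500 bp of each other in 19 pairs and the ends in 29, and both edges in 16. In 6 pairs both edges agreed within 100 bp, for example chr7:152093476-152097978 in RIP-1 and chr7:152093531-152098003 in RIP-2.

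**Figure D3:**
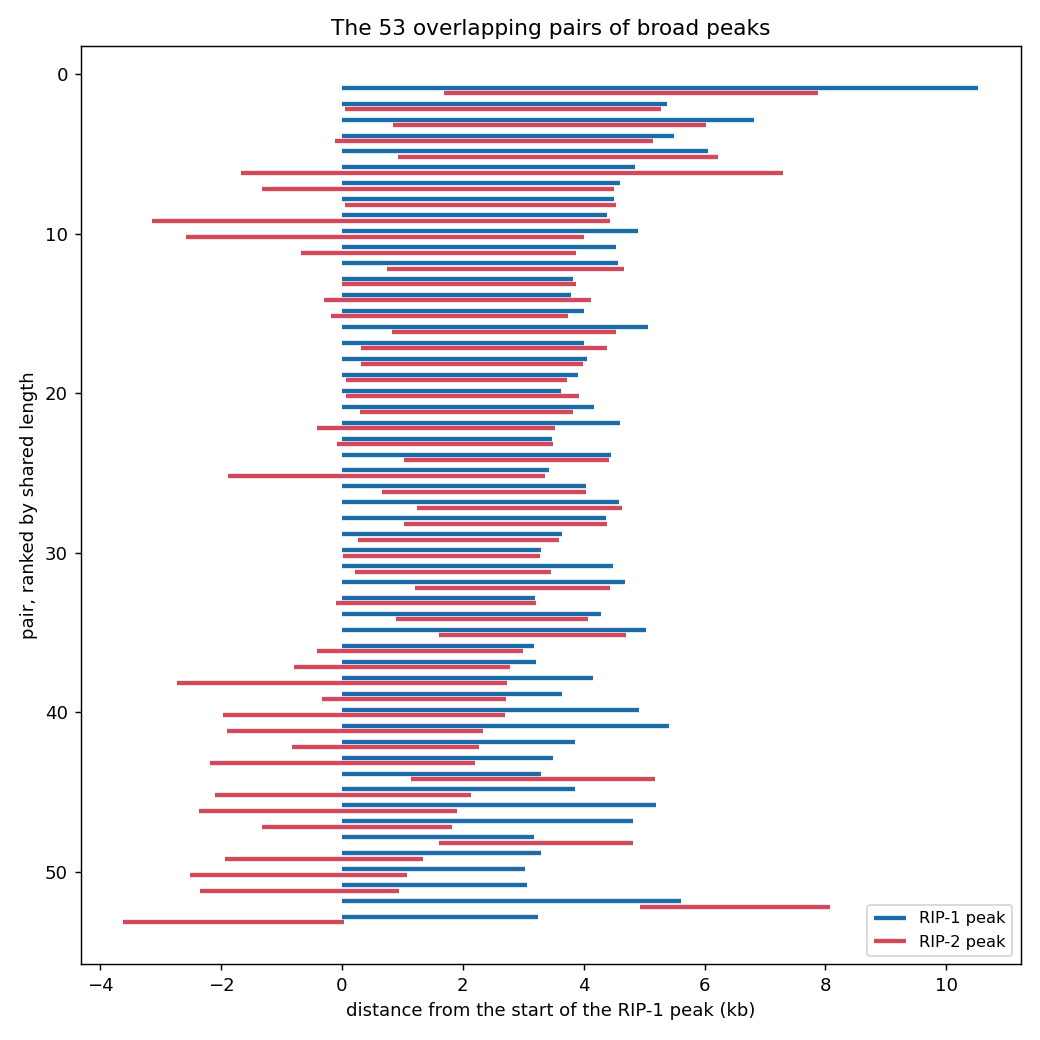
The 53 pairs of broad peaks, ranked by shared length (y axis), with RIP-1 peaks in blue and RIP-2 peaks in red, drawn in kb from the start of the RIP-1 peak (x axis). The pairs at the top share up to 6188 bp, and the last pair shares 39 bp.

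The pair with the most shared sequence lay on chromosome X, where the RIP-2 peak chrX:64299104-64305291 fell wholly inside the RIP-1 peak chrX:64297408-64307927, with 6188 bp in common and folds of 4.56 and 4.89. The next was chr2:109260648-109266028 in RIP-1 and chr2:109260692-109265932 in RIP-2, with 5241 bp in common and folds of 4.04 and 4.58. Its edges differed by 44 and 96 bp. The third was chr22:24766887-24773709 with chr22:24767724-24772907 (5184 bp, folds 5.56 and 7.90), and the fourth chr1:227887726-227893219 with chr1:227887615-227892876 (5151 bp, folds 3.20 and 5.98).

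The other 6 of the first 10, by their RIP-1 positions, were chr6:163888906-163894969, chrX:64437069-64441910, chrX:70773447-70778050, chr7:152093476-152097978, chr1:61588096-61592477 and chr8:12398281-12403170. They shared from 5142 down to 4002 bp. The RIP-1 folds of all 10 lay between 3.20 and 7.01, below the strong end of that list.

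The 53 pairs had low scores in RIP-1 beside all its broad peaks, whose median was 103. Their median RIP-1 score was 81.5 (at most 290) and their median fold 4.61, while in RIP-2 the medians were 174 (at most 716) and 6.01. The whole lists had median folds of 6.55 (RIP-1) and 8.19 (RIP-2), so the difference between partners is not read. In RIP-1, 45 of them had an FDR of 100%. Across the pairs, Spearman's rho was 0.190 for fold and 0.370 for length (n = 53), and Pearson's r of the log10 folds was 0.233. These describe pairs that all come from the same libraries.

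The mRNA lists stand beside lists named NotExon, so their rows are taken here to be exon segments and are called exon rows. Their name does not say so, and no source used here defines them. The distance to the nearest mRNA-list row shows how close a broad peak is to such a row of the same RIP. The median distance in RIP-1 was 28.9 kb (95% interval of the median 24.3 to 35.8, quartiles 7.99 and 107), against 100.7 kb over the whole list. In RIP-2 it was 79.2 kb (65.9 to 95.9, quartiles 23.7 and 236), against 157.6 kb. Both lists come from 1 call, so this is a description. The number of mRNA-list rows was similar, 10960 in RIP-1 and 10280 in RIP-2.

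**Figure D4:**
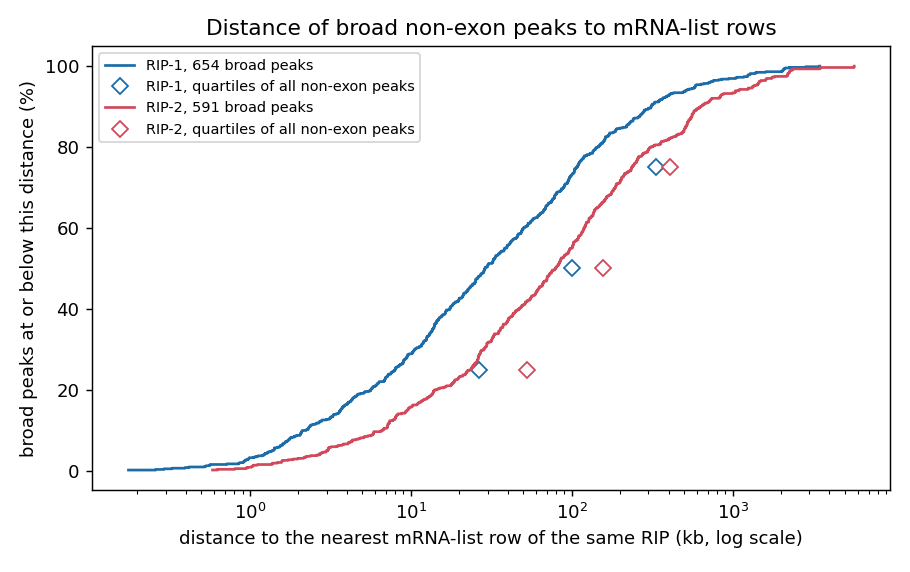
Share of broad peaks (y axis, percent) at or below a given distance to the nearest mRNA-list row of the same RIP (x axis, kb, log scale); diamonds mark the quartiles of all non-exon peaks. The median of broad peaks is 28.9 kb in RIP-1 and 79.2 kb in RIP-2, and all diamonds lie to the right of the line of their RIP.

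Few broad peaks lay next to exon rows. Within 1 kb of an mRNA-list row lay 21 RIP-1 peaks (3.21%, against 1.50% of the list) and 5 RIP-2 peaks (0.846%, against 0.588%). Within 10 kb lay 189 in RIP-1 (28.9%, against 13.0%) and 93 in RIP-2 (15.7%, against 6.83%), and within 100 kb 478 (73.1%, against 49.9%) and 325 (55.0%, against 38.5%). In RIP-2 the share within 1 kb was near that of the list, since its interval of 0.362 to 1.97% included it. Measured to the mRNA-list rows of the other RIP, 76 RIP-1 broad peaks lay within 10 kb (11.6%, against 8.75%) and 52 of RIP-2 (8.80%, against 4.83%), fewer than to the rows of their own RIP.

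The nearness to exon rows began well below 3000 bp. In RIP-1 the median distance fell from 215 kb in peaks under 500 bp to 44.1 kb in those of 1000 to 1499 bp and 31.6 kb in those of 2000 to 2999 bp, and was 30.2 kb from 3000 to 3999 bp. In RIP-2 the same classes had medians of 192, 97.9, 73.7 and 72.5 kb. The threshold of 3000 bp therefore marks no step in this distance.

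Broad peaks more often had exon rows on both sides. Rows of 1 strand stood within 100 kb on both sides of 159 RIP-1 broad peaks (24.3%, against 13.1% of the list) and of 81 RIP-2 broad peaks (13.7%, against 6.92%). Rows of opposite strands did so for 72 of 654 (11.0%, against 4.54%) and 26 of 591 (against 2.64% of the list). No row stood within 100 kb of 176 of 654 RIP-1 and 266 of 591 RIP-2 broad peaks. Whether the rows on both sides belong to 1 gene was not tested.

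RIP-1 broad peaks of low FDR lay near exon rows more often. Of the 45, 26 were within 10 kb of an mRNA-list row (57.8%), as were 99 of the 432 with an FDR of 100% (22.9%). The share was 28.9% over all RIP-1 broad peaks and 13.0% over the list. The median distances were 7.23 kb for the 45 and 40.4 kb for the 432. Both sides had rows of 1 strand for 17 of the 45, beside 24.3% of all RIP-1 broad peaks and 13.1% of the list. RIP-1 broad peaks that overlapped RIP-2 were farther from exon rows, with a median of 90.6 kb against 18.9 kb for the rest. In RIP-2 the medians were 70.6 and 80.3 kb.

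By distance, the overlap of RIP-1 broad peaks with RIP-2 was 13.2% within 10 kb of an exon row (25 of 189), 28.0% from 10 to 100 kb (81 of 289) and 51.1% beyond 100 kb (90 of 176). Their 95% intervals, 9.12 to 18.8, 23.2 to 33.5 and 43.8 to 58.4, did not overlap. The level after moves of 1 to 10 kb followed the same order, with 19.2, 72.1 and 80.7 peaks. That level counts places where a peak still meets its own partner, so it partly repeats the overlap. It therefore gives no separate measure of the density of RIP-2 peaks. After moves of 50 to 500 kb the levels were 20.6%, 22.1% and 27.1%, in the same order but over a narrower range than the overlap. In RIP-2 the observed overlap shares were 20.4%, 12.1% and 13.5%, in intervals that overlapped.

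Some broad peaks lay far from any exon row. The farthest of RIP-1 were chr21:23474059-23478108 at 3483 kb, chr10:57432443-57438733 at 2834 kb and chr10:67394914-67399514 at 2245 kb, and all 3 overlapped a RIP-2 non-exon peak. In RIP-2 they were chr4:32023113-32027433 at 5699 kb, chr4:32011184-32016523 at 5687 kb and chr21:23459934-23464086 at 3510 kb, none with a RIP-1 partner. The RIP-1 peak on chromosome 21 was in a pair of broad peaks with chr21:23474380-23478053, and the third RIP-2 peak lay 9218 bp from the nearest RIP-1 non-exon peak.

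A broad non-exon peak of 1 RIP seldom held an mRNA-list row of the other. This was so for 5 RIP-1 broad peaks (0.765%, against 0.0853% of the list) and 1 of RIP-2 (0.169%, against 0.0142%), and a long peak covers more rows by its length. They were named after their values were seen. In RIP-1 they were chr3:11846907-11851578, chr3:185389579-185394173, chr4:104102188-104105435, chr5:140966359-140970005 and chrX:70635033-70640423. In each the RIP-2 row, 120 to 602 bp long, lay wholly inside the broad peak. In chrX:70635033-70640423 the row began 1434 bp from the left edge and ended 3836 bp from the right. The RIP-2 peak was chr5:86682717-86689333, whose right end reached into a RIP-1 row.

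The share of non-exon peaks that were broad differed among chromosomes in RIP-1. Chromosome 19 had 40 broad peaks, or 56.9 per 1000 non-exon peaks (95% exact binomial interval 41.0 to 76.7), and chromosome 17 had 44, or 45.2 (33.0 to 60.2), against 25.4 in the whole list. Chromosome 13 had 5, or 6.11 (1.99 to 14.2), and chromosome 18 had 6, or 11.7 (4.29 to 25.2). The intervals of chromosomes 1, 17 and 19 lay above the value of the list, and those of chromosomes 4, 10, 13, 14 and 18 below it. Those of chromosomes 1, 14 and 18 missed it only narrowly, with nearest limits of 25.48, 25.24 and 25.18 beside 25.35. Each interval stands for 1 chromosome and is not adjusted for the number of chromosomes.

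RIP-2 did not repeat this order. There chromosome 19 had 5 broad peaks, 2.70 per 1000 (0.876 to 6.28), and chromosome 17 had 17, or 4.64 (2.70 to 7.42), against 4.41 in the list. The highest values were 8.77 on chromosome 21 (13 peaks, 4.68 to 14.9), 8.28 on chromosome 22 (18 peaks, 4.92 to 13.1) and 7.52 on chromosome 18 (22 peaks, 4.72 to 11.4). Chromosome 20 had 2 peaks, or 0.711 (0.0861 to 2.57), the lowest value apart from chromosome Y. Chromosome 1 had the most broad peaks in both RIPs, 76 and 71, and also the most non-exon peaks. Chromosome Y had 0 in both, of 32 and 145 non-exon peaks.

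**Figure D5:**
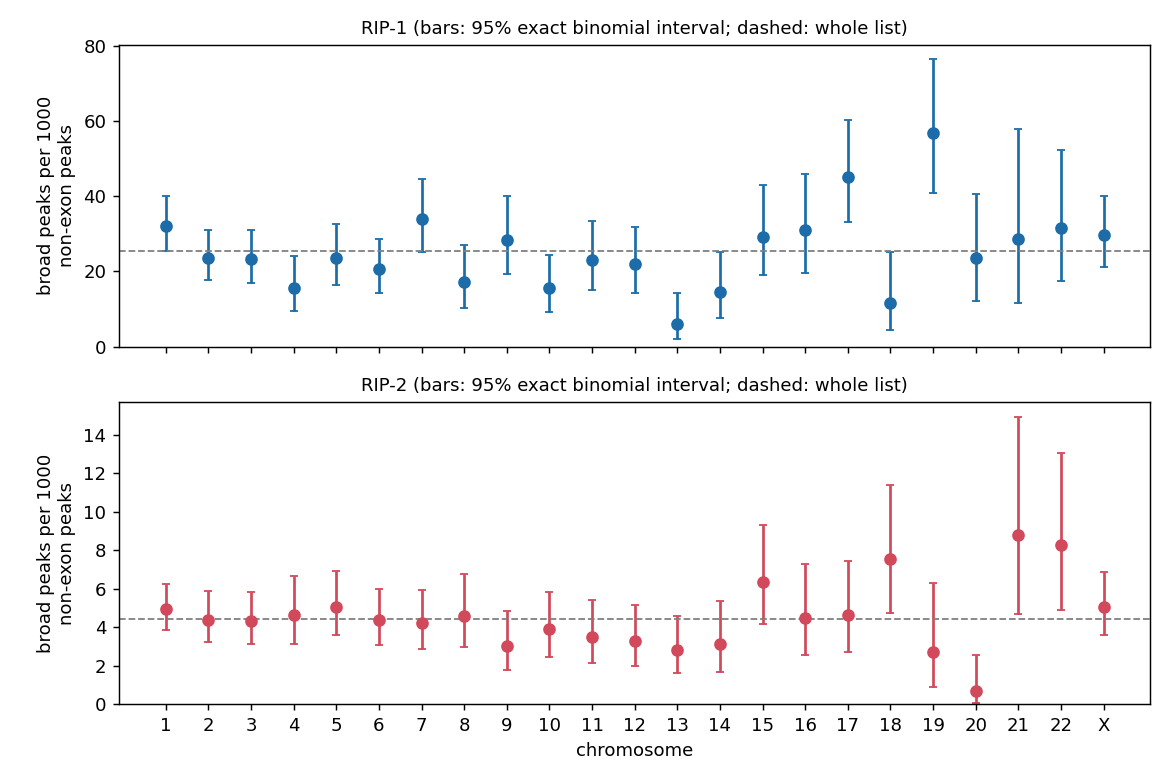
Broad peaks per 1000 non-exon peaks (y axis) on each chromosome (x axis), with 95% exact binomial intervals and the value of the whole list as a dashed line. In RIP-1 chromosomes 19 and 17 are highest with 56.9 and 45.2, while in RIP-2 they have 2.70 and 4.64.

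Broad peaks had close neighbours. Another non-exon peak of the same list stood within 500 bp of 64 RIP-1 broad peaks (9.79%, against 4.08% of the list) and of 166 in RIP-2 (28.1%, against 9.76%). One stood within 1 kb of 85 RIP-1 broad peaks (13.0%, against 6.48% of the list) and of 209 in RIP-2 (35.4%, against 16.6%). The median gap was 12.2 kb in RIP-1 (22.6 kb over the list) and 2.15 kb in RIP-2 (5.002 kb). The broad peaks were thus flanked by further signal more often than the list as a whole.

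Some broad peaks stood in chains, with gaps of at most 50 kb between them. In RIP-1, 164 of 654 were in 76 chains of 2 or more (25.1%), and in RIP-2, 246 of 591 in 93 chains (41.6%). The same count was not made for the whole lists, whose median gaps of 22.6 kb (RIP-1) and 5.002 kb (RIP-2) are below 50 kb. Chaining is therefore not read as a trait of broad peaks. The chains named here were chosen after they were seen. The largest of RIP-2 held 8 broad peaks over 139 kb of chromosome 13 (34425036 to 34564284), with folds from 4.17 to 11.8. The next held 6 over 58.8 kb of chromosome X (115019814 to 115078589), where 56.2% of the span was covered by them. RIP-1 had 0 non-exon peaks in either stretch. Others met RIP-1 signal: of 6 broad peaks at chromosome 1 (61584949 to 61653450), 1 overlapped a broad RIP-1 peak, and so did 1 of 5 at chromosome 2 (176483349 to 176579829).

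In RIP-1 the largest chain held 5 broad peaks over 143 kb of chromosome 7 (93237133 to 93380616), with folds of 3.35 to 4.25. RIP-2 had 16 non-exon peaks in this span, of which 0 were broad and 0 overlapped the 5. A chain of 4 covered 43.8% of 39.8 kb of chromosome 3 (51662893 to 51702675), and its nearest mRNA-list row was 534 bp away. A chain of 3 on chromosome 17 (34136400 to 34153724) was nearly continuous, with 97.7% of its 17.3 kb covered and gaps of 296 and 108 bp. Its members had deposited scores of 66.7, 3100 and 277 and folds of 20.45, 17.6 and 8.13, so neighbours of like fold differed widely in score. RIP-2 had 0 non-exon peaks in these last 2 stretches. In a further chain of 3 on chromosome 6 (163888906 to 163936886) all 3 overlapped RIP-2 peaks, and in a chain of 3 on chromosome 18 (36905303 to 36948299) 1 did.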

How the data were processed

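RNA from anti-SF3B4, IgG and input libraries of HEK293T was sequenced in 2 RIP experiments. Per the submitters' processing notes, cutadapt 1.9.3, HISAT2 2.0.4 and hg19 were used; for the peak caller, the sources used here give no version, settings or control. The authors deposited 1 mRNA and 1 NotExon list per RIP, 4 files without headers. Per the deposited values and column order, they hold a score, the length in bp, the fold enrichment as a ratio over the control, and the FDR in percent.

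Peaks of 3000 bp or more were taken by the length column. Overlap needed 1 bp, positions counted from 1 with both ends included, and distances ran edge to edge. The lengths given for mRNA-list rows were end minus start. Expected overlap was enumerated over all moves within each chromosome's span, without random draws, and the functions were tested on simulated data. Peaks were named by rule: per RIP the 5 longest, the 5 highest folds, the 3 highest scores, up to 5 with a low FDR, 3 on each side of the threshold and the 3 farthest from an mRNA-list row, and the 10 pairs with the most shared bp. Members, rules and settings were chosen with earlier results of these data known. Peaks are not replicates, so no p-values were computed. Alternatives varied threshold, overlap, list length, moves and chromosomes. Python 3.11.15, numpy 2.4.6, pandas 2.3.3 and scipy 1.17.1 were used.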

Additional observations from a re-analysis of the deposited data

How the results depend on the processing

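Of 61 alternative values, 31 stayed within the interval of the value reported or within 1.5 times the reported count, 29 moved further and 1 reversed; those with moves of 20 to 100 kb, without the low FDR, for pairs and for chains were chosen after seeing the data. The number of broad peaks was 1697 and 1862 (RIP-1 and RIP-2) from 2000 bp, 128 and 120 from 5000 bp, and 222 and 153 with an FDR under 100%, by construction. The share overlapping fell to 17.9% and 9.48% when the midpoint had to be covered and to 14.5% and 9.31% when 50% had to be; for RIP-1 it was 13.3% against a RIP-2 list as short as that of RIP-1, and 21.9% from 5000 bp. The factor over the expected overlap in RIP-1 was 0.857 from 5000 bp, so it turned below 1; the cause was not tested. It was 1.54 and 3.22 with every place in the chromosome's span, 1.30 and 2.25 with moves of 50 to 500 kb, 2.13 and 2.15 for midpoints, 1.42 for RIP-1 against the shortened list, and 1.51 for RIP-2 with moves of 20 to 100 kb. The factor for broad partners was 1.75 and 1.73 with moves of 1 to 10 kb, and 7.68 and 7.56 with moves of 20 to 100 kb. The median distance was 69.3 and 148.5 kb to the upper 50% of mRNA-list rows by score, since fewer rows remain, and 23.1 kb in RIP-1 from 5000 bp. Pairs of broad peaks numbered 172 from 2000 bp and 5 from 5000 bp. No paired analysis was possible because the 4 lists hold peaks, not values of the 6 libraries. Unknown depth limits every comparison of the RIPs, and the cap at 3100 limits ranks by score.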
